A study of Mus musculus with 50 samples.

Results

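Activator protein 1 (AP-1) is a dimer of a Fos and a Jun protein, or of a pair of Jun proteins. The genes described here are the 7 members of the Fos and Jun families, *Fos*, *Fosb*, *Fosl1*, *Fosl2*, *Jun*, *Junb* and *Jund*. They were taken by symbol, and all 7 were found among the 55385 genes of 28 RNA libraries of mouse motor neurons. The study profiled RNA and open chromatin of motor neurons from the embryo to old age and during maturation in culture. It looked for regulators of this maturation, and AP-1 sites in accessible chromatin raise the question of which members had RNA in tissue and in culture. At E10.5 (3 RNA libraries) whole cells with high GFP were sorted from spinal cords of C57BL/6 mice carrying *HB9-GFP*, a reporter of motor neurons. From E13.5 (2 libraries) through P4 (3), P13 (2), P21 (3) and P56 (3) to old mice of 2 years (2), tagged nuclei were taken from spinal cords of C57BL/6 *Chat-Cre;SUN1-GFP-3xMYC* mice, in which *Chat-Cre* marks cholinergic neurons, motor neurons among them, and some other neurons. The cultured neurons came from 1 embryonic stem cell line with the same transgenes. Their nuclei were collected from embryoid bodies (DIV0, 2 libraries) or after 7 days (DIV7, 2) or 28 days (DIV28, 3) on cortical astrocytes, the last also with 1 uM tetrodotoxin (TTX), a sodium channel blocker, throughout (DIV28+TTX, 3). Each tissue replicate combined spinal cords of several animals, and the methods call the replicates biological. Whole cells and nuclei cannot be told apart from age at the step from E10.5 to E13.5.

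Fos proteins bind DNA through a basic region and pair through a leucine zipper, and they do not form stable pairs among themselves, so each needs a Jun partner. Jun proteins can also pair with each other. In neurons, transcription of *Fos*, *Fosb* and *Junb* rises within minutes of depolarisation through SRF, ELK and CREB proteins, and c-Jun is phosphorylated by the JNK kinases and is known for its rise in injured motor neurons. AP-1 is best known to bind the heptamer TGAGTCA, which reads TGACTCA on the other strand.

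In mm10, *Fos* spans 85473890 to 85477273 of chromosome 12 (plus strand), *Fosb* 19302696 to 19310051 of chromosome 7 (minus strand), *Fosl1* 5447547 to 5455946 of chromosome 19 (plus strand) and *Fosl2* 32135801 to 32157842 of chromosome 5 (plus strand). *Jun* lies at 95049034 to 95052222 of chromosome 4 (minus strand), *Junb* at 84974484 to 84978718 (minus strand) and *Jund* at 70698949 to 70700616 (plus strand) of chromosome 8. The main transcripts of the Fos family have 4 exons and those of the Jun family 1. Counting did not use strand, so reads of overlapping genes cannot be told apart by it. *Junos* overlaps *Jun* by 689 bp and held 0 to 54 counts, at most 30.9% of the count of *Jun* in the same library. *Gm11175* overlaps *Jund* by 919 bp and held at most 16.7% of the count of *Jund*. *Prdx2* overlaps *Junb* by 351 bp and *Ccdc85b* overlaps *Fosl1* by 2767 bp, both with more counts than the member in every library where it was counted, so the levels of *Junb* and *Fosl1* are less certain.

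The promoters of *Fos* and *Jun* are shown because their RefSeq starts equal the GENCODE starts and because both genes carried an ATAC peak at the start in every library, as given below. Each sequence is the 250 bases before the start, from RefSeq's GRCm38.p6 table, on the gene's strand. Capitals mark the CRE core (TGACG, both strands, also part of a full CRE octamer) in *Fos*, and in *Jun* the jun1 and jun2 sites (TGACATCA and TTACCTCA, both strands), which were searched for after the sequence had been seen.
Fos promoter, chr12:85473640-85473889: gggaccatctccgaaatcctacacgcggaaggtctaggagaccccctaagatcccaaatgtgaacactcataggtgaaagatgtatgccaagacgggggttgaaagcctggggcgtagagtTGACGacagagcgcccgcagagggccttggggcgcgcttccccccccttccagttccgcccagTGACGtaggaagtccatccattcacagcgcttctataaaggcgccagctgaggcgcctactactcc
Jun promoter, chr4:95052223-95052472: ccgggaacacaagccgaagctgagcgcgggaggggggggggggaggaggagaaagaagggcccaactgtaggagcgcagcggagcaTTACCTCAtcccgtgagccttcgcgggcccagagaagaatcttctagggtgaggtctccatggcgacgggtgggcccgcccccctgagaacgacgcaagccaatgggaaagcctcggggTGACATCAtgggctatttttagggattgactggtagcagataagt
The CRE cores of *Fos* start at -129 and -66, and the jun1 and jun2 sites of *Jun* at -45 and -164. A CRE core was found in 17.8% of 32851 RefSeq promoters cut to the same 250 bases, jun1 in 1.52% and jun2 in 0.402%. A CRE core was also present in the promoters of *Fosb* (-60) and *Junb* (-106). None of the motifs searched (these, the AP-1 heptamer, the CRE octamer and the CArG box) was found in those of *Fosl2* and *Jund*, whose RefSeq start lies 671 bp after and 1210 bp before the GENCODE start. The AP-1 heptamer, in 4.46% of all promoters, was in none of the 6 promoters matched.

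Library totals ran from 2704682 to 21823500 counts (median 4292675). A library carries the title DIV0 replicate 3, while its deposited table is named for DIV28, and it was used as DIV28 replicate 3. Over 20789 genes its log2 levels correlated at 0.944 and 0.936 with the other DIV28 libraries and at 0.802 and 0.803 with the DIV0 libraries, and log2 fold changes that rest on it are also given without it. All 6 motor neuron markers (*Chat*, *Slc5a7*, *Slc18a3*, *Isl1*, *Mnx1* and *Prph*) had counts in every group, with sums of 110.2 to 525.9 TPM. From DIV0 to DIV28 3 of the 6 fell and 1 rose, with a median log2 fold change of -1.60, and from DIV0 to DIV7 also 3 fell and 1 rose. The 4 endothelial markers summed to 400.0 to 751.6 TPM at E13.5 and 109 to 239 at P4, and to at most 13.6 in every other group. The 4 fibroblast markers summed to 81.0 to 112 TPM at E13.5, the 4 oligodendrocyte markers to 369 to 449 at P13 and the 5 astrocyte markers to 78.4 to 121 at P13. In culture the astrocyte markers summed to 0.84 to 1.01 TPM at DIV0, 11.4 to 39.5 at DIV7 and 3.98 to 5.63 at DIV28. In bulk samples, fewer cells of a type and less RNA per cell cannot be told apart.

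*Jun* and *Jund* fell with age in tissue, and *Jun* rose in culture. *Fosl2* and *Junb* also rose in culture, but their rises from DIV0 are not counted as support, as explained below. The limits for calling a gene changed were 0.001 for the unadjusted p and 2-fold for its size. A gene was tested where it passed a CPM of 5 in every replicate of some group, which *Fosl1* did nowhere and *Fos* and *Fosb* did not in culture. In tissue 6 members were tested. From E10.5 to E13.5 4 of them changed, 1 higher and 3 lower, against 44.1% of all genes tested. Of these *Fosb* passed the filter only through E10.5, where it was high, so its fall is not counted as support. From E13.5 to P4 1 fell (42.7% of all genes changed and 19.0% fell), and from P4 to P13 1 fell (13.3% and 7.54%). None passed from P13 to P21 (7.30%), where 2 had an unadjusted p under 0.05, from P21 to P56 (0.173%), where 0 did, or from P56 to 2 years (0.685%), where 1 did. Over the whole span from E13.5 to P21 2 fell and 0 rose, against 56.1% of all genes changed and 26.3% that fell, and the median log2 fold change of the 6 was 0.06 against 0.15 for all genes tested.

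In culture 4 members were tested, *Fosl2*, *Jun*, *Junb* and *Jund*. From DIV0 to DIV7 2 of them rose (11.2% of all genes changed and 8.36% rose). From DIV7 to DIV28 0 passed (7.70%), and 2 had an unadjusted p under 0.05. From DIV0 to DIV28 3 of the 4 rose and 0 fell, against 19.0% of all genes changed and 11.5% that rose. Their median log2 fold change was 2.91, against 0.06 for all 12890 genes tested. Only members with enough RNA in some culture group enter these counts. *Fosl2* (17 and 18 counts at DIV0) and *Junb* (4 and 3) passed the filter only through later groups, where they were high. Their rises from DIV0, and the median that holds them, are therefore not counted as support.

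Within libraries, *Jun* led the family at every stage but E10.5. On TPM, which is per length and allows genes to be compared, *Jund* held 61.6% of the summed RNA of the 7 members at E10.5 and *Jun* 29.3%. From E13.5 on *Jun* was first, with 66.8% at E13.5, 44.2% at P21 and 37.2% at 2 years, and with 65.2% at DIV0, 61.3% at DIV7 and 78.1% at DIV28. The 3 Jun genes together held 94.7% (range over libraries 94.1 to 95.4) at E13.5, 73.5% (72.1 to 74.2) at P21 and 67.0% (65.3 to 68.8) at 2 years. *Fos* held 2.37% at E13.5, 13.2% at P21 and 17.2% at 2 years, and *Fosl2* 2.32%, 10.9% and 14.5%. At DIV28 the Jun genes held 89.3% (87.1 to 91.2), *Fosl2* 7.50% and *Fos* 2.65%. *Fosb* and *Fosl1* held at most 1.97% and 1.31% in any group. By these shares the Fos partners with most RNA were *Fos* and *Fosl2* in mature tissue and at DIV7, and *Fosl2* at DIV28. The shares of *Fos* and *Fosl2* overlapped between libraries at P21 (10.8 to 14.5% against 10.2 to 12.4%) and P56 (7.34 to 21.8% against 11.9 to 18.3%). They also overlapped at DIV7 (4.26 to 13.7% against 6.95 to 13.3%), so the order of the pair is not resolved there. *Fos* had only 9, 15 and 12 counts at P21 and 12 and 76 at DIV7. All these are shares of RNA and not of protein. The study cautions that *Fos* RNA, induced only briefly, may be poorly detected in bulk nuclear RNA. By staining it saw FOS protein in subsets of postnatal motor neurons, in a larger proportion of them at P56 than at P4. It also saw robust FOS protein in motor neurons at DIV28, and it reports that TTX suppressed FOS in culture.

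**Figure D1:**
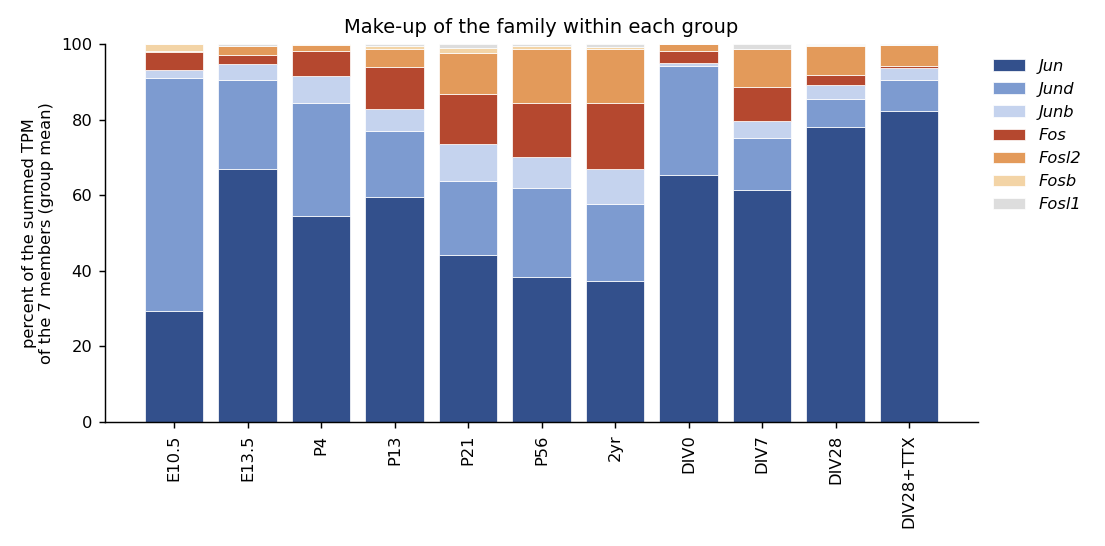
Share of each member in the summed TPM of the 7 members (y axis, percent, mean of the libraries of a group) at each age and culture stage (x axis). The blue Jun genes fill 94.7% of the bar at E13.5 and 67.0% at 2 years, and *Jun* alone fills 78.1% at DIV28.

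*Fos* and *Fosb* fell from E10.5 to E13.5, while *Fosl2* rose. The E10.5 libraries are of sorted whole cells and the E13.5 libraries of nuclei, so preparation and age cannot be told apart at this step. *Fos*, the prototype early response gene, had 118, 44.9 and 111 normalised counts in the E10.5 libraries and 9.24 and 7.29 at E13.5, with no overlap, a log2 fold change of -3.64 (SE 0.48, edgeR quasi-likelihood test, Benjamini-Hochberg adjusted p = 3.36e-06). Normalised counts were scaled to library size by the median of ratios, and fold changes are later over earlier stage. At later ages *Fos* lay between 8.73 and 27.5 from P4 to P56 and at 35.0 and 35.4 at 2 years, above all 3 P56 libraries (14.5 to 23.4), with a log2 fold change of 0.91 (SE 0.45, edgeR quasi-likelihood test, Benjamini-Hochberg adjusted p = 0.426). *Fosb*, which also encodes the long-lived ΔFosB, had 87.1, 61.5 and 70.2 normalised counts at E10.5 and 1.85 and 0.43 at E13.5. The 3 counts at E13.5 leave a ratio of 82.6 (95% counting interval 28.0 to 403) of E10.5 to E13.5. The ratio was 169 without E13.5 replicate 1 and 39.3 without E13.5 replicate 2. Its interval covers counting error only. The fit gave edgeR quasi-likelihood test, Benjamini-Hochberg adjusted p = 4.3e-08. As *Fosb* passed the filter only through E10.5, where it was high, this p is not counted as support. In the tissue libraries after E13.5 *Fosb* held 0 to 9 counts per library.

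*Fosl2*, which encodes Fra-2, was the Fos partner that went up between E10.5 (whole cells) and E13.5 (nuclei). It had 13.8, 13.8 and 16.8 normalised counts at E10.5 and 49.9 and 69.1 at E13.5, without overlap (log2 fold change 1.87, SE 0.26, edgeR quasi-likelihood test, Benjamini-Hochberg adjusted p = 5.54e-06). At P4 it was at 22.4, 21.8 and 34.9, below both E13.5 libraries (log2 fold change -1.05, SE 0.26, edgeR quasi-likelihood test, Benjamini-Hochberg adjusted p = 0.00159). The fall was not called without E13.5 replicate 2 (-0.76), P4 replicate 1 (-0.95) or P4 replicate 2 (-0.93), nor with only the groups compared (-1.09). The endothelial and fibroblast markers were highest at E13.5 too, and their part in this rise and fall was not tested. No later step passed both limits, and *Fosl2* was at 42.7 and 37.1 at P13, 62.2 to 75.5 at P21, 55.4 to 68.3 at P56 and 83.4 and 93.1 at 2 years. *Fosl1*, which encodes Fra-1, had 0 to 7 counts per library and none in 11 of 28 libraries, so no change of it could be tested.

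*Fosl2* also rose in culture. *Fosl2* had 22.2 and 27.5 normalised counts at DIV0, 283 and 197 at DIV7, and 395, 576 and 377 at DIV28. The 3 stages did not overlap. The log2 fold change from DIV0 to DIV7 was 3.27 (SE 0.41, edgeR quasi-likelihood test, Benjamini-Hochberg adjusted p = 2.41e-04) and that from DIV0 to DIV28 4.21 (SE 0.41, edgeR quasi-likelihood test, Benjamini-Hochberg adjusted p = 1.76e-05), or 4.32 without DIV28 replicate 3. From DIV7 to DIV28 it was 0.94 (SE 0.33, edgeR quasi-likelihood test, Benjamini-Hochberg adjusted p = 0.0682), under the limits. *Fosl2* passed the filter only through groups after DIV0, where it was high. The p-values of its rises from DIV0 are therefore not counted as support. *Fos* was at 7.84 and 19.9 normalised counts at DIV0, 22.5 and 97.0 at DIV7, and 22.02, 28.4 and 32.1 at DIV28. The DIV7 libraries of *Fos* lay on both sides of the DIV28 ones, so its level there is uncertain. *Fosb* had 0 counts in both DIV0 libraries, 0 and 1 at DIV7, and 11, 6 and 12 at DIV28, which is at least 2.57-fold higher than a floor of 3 counts over the DIV0 group. This bound was 1.19 without DIV0 replicate 1, 1.39 without DIV0 replicate 2 and 4.87 without DIV28 replicate 2. *Fosl1* had 0 and 0 counts at DIV0 and 6 and 7 at DIV7, at least 4.67-fold higher by the same floor (2.15 without DIV0 replicate 1, 2.52 without DIV0 replicate 2), and 6, 4 and 5 at DIV28. These bounds cover counting error only. The astrocyte markers (3 of 5 with counts at DIV0, 5 of 5 at DIV28) and the fibroblast markers (3 of 4 and 4 of 4; 0.02 to 0.19 TPM at DIV0, 6.08 to 69.5 at DIV7 and 0.05 to 7.33 at DIV28) were higher at DIV7 than at DIV0 too, and their part in the rise of the members was not tested. Of the 6 motor neuron markers, 3 fell and 1 rose from DIV0 to DIV28, and their part was not tested either.

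Of the Jun partners, *Jun* and *Jund* fell in tissue, and no change of *Junb* passed the limits. *Jun*, the main partner of the Fos proteins, had 1152, 582 and 1514 normalised counts at E10.5 and 897 and 905 at E13.5, which overlap. It was at 485 to 567 at P4, 302 and 409 at P13, 185 to 203 at P21, 130 to 166 at P56 and 157 and 192 at 2 years. Each age from E13.5 to P56 lay below the one before it without overlap, yet no single step passed both limits. From E13.5 to P21 the log2 fold change was -2.05 (SE 0.27, edgeR quasi-likelihood test, Benjamini-Hochberg adjusted p = 2.58e-06), and it lay between -2.07 and -2.01 whichever library of these ages was left out. Over this span all 4 endothelial and all 4 fibroblast markers fell, and all 4 oligodendrocyte markers rose. Of the 5 astrocyte markers 3 rose and 1 fell. At P21 the oligodendrocyte markers summed to 196 to 243 TPM, against 140.5 to 223 for the motor neuron markers. The part of these cells in the fall of *Jun* was not tested.

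*Jund*, a member with steady RNA in many cells, had 1105, 671 and 1549 normalised counts at E10.5 (whole cells) and 170 and 138 at E13.5 (nuclei), without overlap (log2 fold change -3.02, SE 0.32, edgeR quasi-likelihood test, Benjamini-Hochberg adjusted p = 2.26e-07). At P4 it was at 151, 127 and 142, and at P13 at 47.4 and 50.1, again without overlap (log2 fold change -1.43, SE 0.33, edgeR quasi-likelihood test, Benjamini-Hochberg adjusted p = 0.00287). That step was not called without P4 replicate 1 (-1.37), P4 replicate 3 (-1.42), P13 replicate 1 (-1.42) or P13 replicate 2 (-1.45). Where a single P13 library is left, it is assumed to vary like the other ages. From P4 to P13 all 4 endothelial markers fell (109 to 239 against 8.51 to 13.6 TPM) and all 4 oligodendrocyte markers rose (84.8 to 108 against 369 to 449 TPM), and from E10.5 to E13.5 all 4 endothelial and all 4 fibroblast markers rose. Their part in the falls of *Jund* was not tested. At P21 *Jund* was at 50.4, 43.6 and 34.5, and its log2 fold change from E13.5 was -1.68 (SE 0.33, edgeR quasi-likelihood test, Benjamini-Hochberg adjusted p = 1.62e-04), or -1.52 and not called without E13.5 replicate 1. *Junb*, an early response gene, had 22.2 and 36.5 normalised counts at E13.5 and 23.8, 26.7 and 19.3 at P21, which overlap (log2 fold change -0.22, SE 0.43, edgeR quasi-likelihood test, Benjamini-Hochberg adjusted p = 0.655). Over all tissue libraries it ran from 13.2 to 56.2.

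In culture *Jun* and *Junb* rose, and no change of *Jund* passed the limits. *Jun* had 1120.0 and 693 normalised counts at DIV0, 1204 and 1397 at DIV7, and 3036, 3932 and 2313 at DIV28, all 3 stages apart. Its log2 fold change from DIV0 to DIV28 was 1.80 (SE 0.34, edgeR quasi-likelihood test, Benjamini-Hochberg adjusted p = 0.00142), 1.97 without DIV28 replicate 3, and 1.49 and not called without DIV0 replicate 2. From DIV0 to DIV7 it was 0.53 (SE 0.35) and from DIV7 to DIV28 1.27 (SE 0.33, edgeR quasi-likelihood test, Benjamini-Hochberg adjusted p = 0.0209), which missed the limit on the unadjusted p in edgeR's quasi-likelihood test and passed it with DESeq2 and with no filter on low counts. Without DIV28 replicate 3 it was 1.44 and not called. *Junb* had 5.23 and 4.59 normalised counts at DIV0, from 7 counts in all, 45.0 and 56.1 at DIV7, and 89.2, 88.5 and 62.0 at DIV28. Its log2 fold change was 3.34 (SE 0.60, edgeR quasi-likelihood test, Benjamini-Hochberg adjusted p = 0.00204) to DIV7 and 4.02 (SE 0.57, edgeR quasi-likelihood test, Benjamini-Hochberg adjusted p = 2.25e-04) to DIV28, the latter 4.17 without DIV28 replicate 3. The step to DIV7 was not called without DIV0 replicate 1 (3.46), DIV0 replicate 2 (3.26) or DIV7 replicate 2 (3.12). *Junb* passed the filter only through groups after DIV0, where it was high. The p-values of its rises from DIV0 are therefore not counted as support. *Jund* had 234 and 161 normalised counts at DIV0 and 226, 95.6 and 97.0 at DIV28, which overlap (log2 fold change -0.48, SE 0.44, edgeR quasi-likelihood test, Benjamini-Hochberg adjusted p = 0.414).

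**Figure D2:**
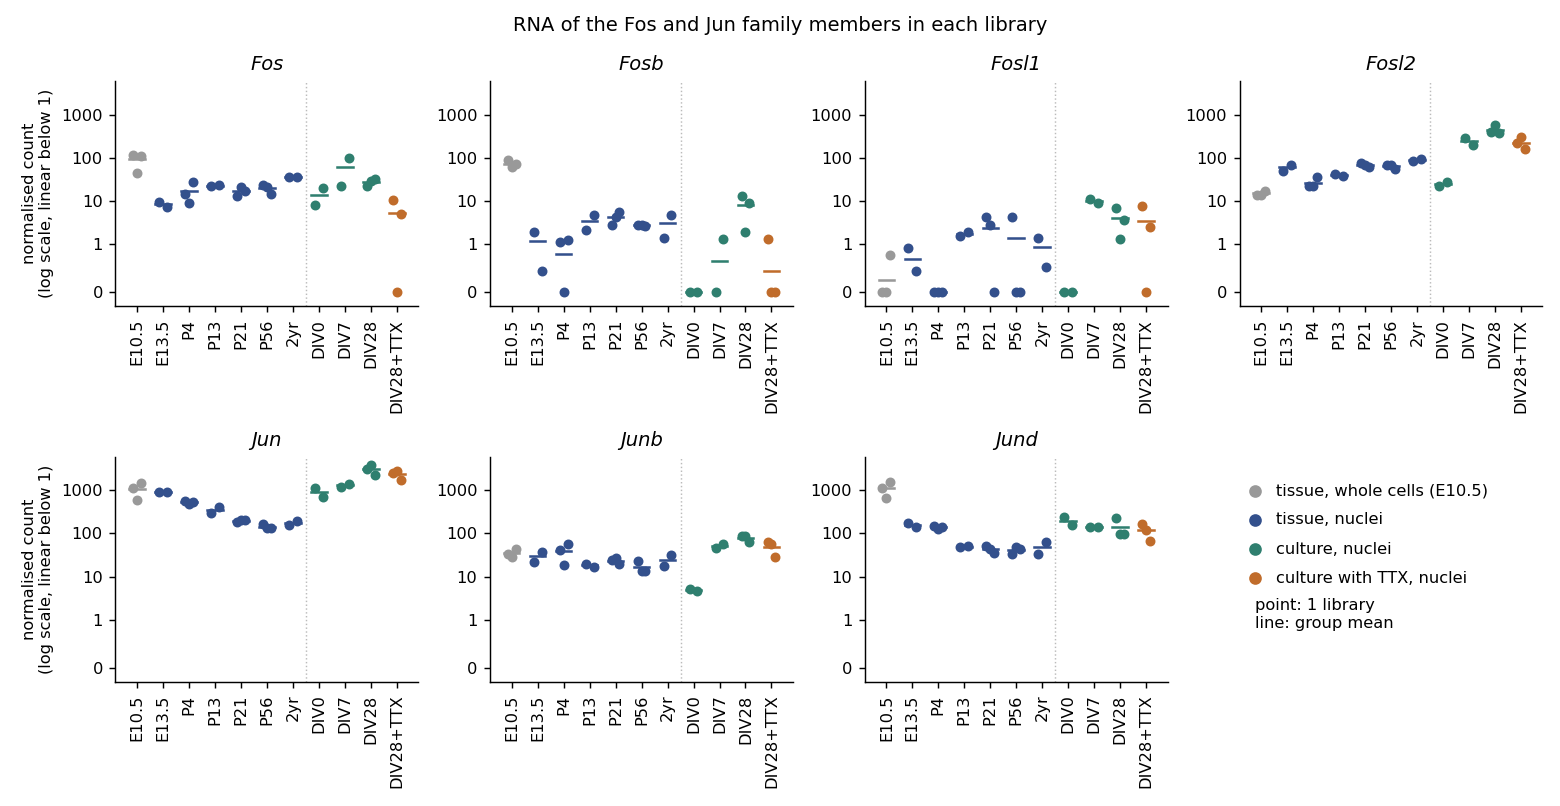
Normalised counts of each member (y axis, log scale, linear below 1) in each of the 28 RNA libraries (points), by age or culture stage (x axis), with group means as lines. *Jun* goes down from E13.5 (897 and 905) to P56 (130 to 166) and up from DIV0 (1120.0 and 693) to DIV28 (2313 to 3932), and *Fosl2* is highest at DIV28 (377 to 576).

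Silencing with TTX was compared with DIV28, in libraries whose replicate numbers paired them by the correlation of their deviations, to see which members depended on activity. Of the 4 tested members 0 passed the limits with edgeR's quasi-likelihood test without a block (0.683% of all genes passed), and 1 had an unadjusted p under 0.05. *Fosl2* had 395, 576 and 377 normalised counts at DIV28 and 215, 297.5 and 158 with TTX. Each library with TTX lay below its pair and below all 3 without. The log2 fold change was -1.02 (SE 0.28, edgeR quasi-likelihood test, Benjamini-Hochberg adjusted p = 0.231). With the pair as a replicate block it was -1.05 (SE 0.22, edgeR quasi-likelihood test, Benjamini-Hochberg adjusted p = 0.0507), past the limits, against 1.33% of all genes. Without DIV28 replicate 3 and without a block it was -1.14 (edgeR quasi-likelihood test, Benjamini-Hochberg adjusted p = 0.259). The astrocyte markers summed to 3.98 to 5.63 TPM at DIV28 and 2.08 to 10.46 with TTX, the fibroblast markers to 0.05 to 7.33 and 0.31 to 45.1, and their part in the difference was not tested.

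*Fos* and *Fosb* were too low for the filter, and their counts are given instead. *Fos* had 19, 88 and 44 counts at DIV28 and 8, 0 and 4 with TTX, although the library with 0 was the deepest of the 3, with 12204869 counts in all. The groups did not overlap in normalised counts (22.02 to 32.1 against 0 to 10.3), and the pooled ratio was 8.05 (95% counting interval 4.48 to 15.9). It was 3.70 (2.06 to 7.33) without TTX replicate 2, the library at 0, and 18.7 without TTX replicate 1. In the fit with no filter on low counts *Fos* passed the limits, with a log2 fold change of -2.65 (SE 0.70, edgeR quasi-likelihood test, Benjamini-Hochberg adjusted p = 0.0203), as did *Fosl2*, against 1.19% of the genes of that fit. *Fosb* had 11, 6 and 12 counts at DIV28 and 1, 0 and 0 with TTX, a pooled ratio of 18.6 (95% counting interval 3.08 to 758). It was 8.53 without TTX replicate 2 and 35.1 without DIV28 replicate 2, and without TTX replicate 1 the difference was at least 4.78-fold. The counting intervals of *Fos* and *Fosb* cover counting error only. They leave out the spread between libraries and the pairs. The Jun partners overlapped between the groups. *Jun* was at 2534, 2745 and 1766 normalised counts with TTX (log2 fold change -0.42, SE 0.28), *Junb* at 63.1, 56.5 and 27.8 (-0.71, SE 0.37) and *Jund* at 162, 122 and 66.9 (-0.26, SE 0.40), with edgeR quasi-likelihood test, Benjamini-Hochberg adjusted p = 0.844, 0.717 and 0.965. *Jun* and *Junb* were lower with TTX in 3 of 3 pairs and *Jund* in 2 of 3. The p-values of the Jun partners are from the fit without a block, which ignores the pairs.

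At the start of maturation the 2 members lower in culture than in tissue were a share near that of all genes. Neither call held when some single libraries were left out. At its end 4 members were higher in culture. From E13.5 to DIV0 2 of 6 tested members were lower in culture (39.4% of all genes differed and 24.3% were lower): *Fosl2* by -1.30 (SE 0.31, edgeR quasi-likelihood test, Benjamini-Hochberg adjusted p = 9.73e-04) and *Junb* by -2.60 (SE 0.58, edgeR quasi-likelihood test, Benjamini-Hochberg adjusted p = 5.48e-04) on the log2 scale. Neither call held without E13.5 replicate 2 (-1.01 and -2.15), DIV0 replicate 1 (-1.23 and -2.78) or DIV0 replicate 2 (-1.53 and -2.59). *Jun* differed by -0.01 (SE 0.31) and *Jund* by 0.35 (SE 0.37). The endothelial and fibroblast markers, high at E13.5, summed to at most 0.2 TPM each at DIV0, and their part in the difference was not tested.

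From P21 to DIV28 4 of 6 tested members were higher in culture and 0 lower, against 26.3% of all genes that differed and 13.3% that were higher, and the median log2 fold change of the 6 was 1.78 against 0.03 for all genes. *Jun* had 185 to 203 normalised counts at P21 and 2313 to 3932 at DIV28, a log2 fold change of 4.04 (SE 0.29, edgeR quasi-likelihood test, Benjamini-Hochberg adjusted p = 3.54e-10). *Fosl2* differed by 2.77 (SE 0.22, edgeR quasi-likelihood test, Benjamini-Hochberg adjusted p = 2.01e-09), *Junb* by 1.83 (SE 0.37, edgeR quasi-likelihood test, Benjamini-Hochberg adjusted p = 2.64e-04) and *Jund* by 1.73 (SE 0.35, edgeR quasi-likelihood test, Benjamini-Hochberg adjusted p = 2.73e-04). None of these 4 overlapped between the groups, and without DIV28 replicate 3 the values were 4.23, 2.90, 2.01 and 1.95. *Fos* differed by 0.78 (SE 0.50) and *Fosb* by 0.74 (SE 0.70), both short of the limits. The oligodendrocyte markers summed to 196 to 243 TPM at P21 and 0.5 to 0.67 at DIV28 and the astrocyte markers to 40.1 to 48.2 and 3.98 to 5.63, and their part was not tested. No group of tissue was grown with astrocytes or plated, so maturity, plating and co-culture cannot be told apart in this comparison.

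The change in tissue from E13.5 to P21 was also set against the change in culture from DIV0 to DIV28 in a single model. Of 6 tested members 3 differed, all with the lower change in tissue, against 41.7% of all genes that differed and 24.2% that had the lower change in tissue. The difference of log2 changes was -4.07 (SE 0.38, edgeR quasi-likelihood test, Benjamini-Hochberg adjusted p = 9.45e-09) for *Fosl2*, -4.05 (SE 0.42, edgeR quasi-likelihood test, Benjamini-Hochberg adjusted p = 4.39e-08) for *Jun* and -4.43 (SE 0.68, edgeR quasi-likelihood test, Benjamini-Hochberg adjusted p = 8.81e-06) for *Junb*. Without DIV28 replicate 3 these were -4.28, -4.31 and -4.68. For *Jund* it was -1.38 (SE 0.51, edgeR quasi-likelihood test, Benjamini-Hochberg adjusted p = 0.0223), which missed the limit on the unadjusted p, and for *Fos* -0.07 (SE 0.91). The values of *Junb* and *Fosl2* rest on low DIV0 levels, with 7 and 35 counts in all. The endothelial markers summed to 400.0 to 751.6 TPM at E13.5 and 0.15 to 0.2 at DIV0, and their part in these differences was not tested.

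**Figure D3:**
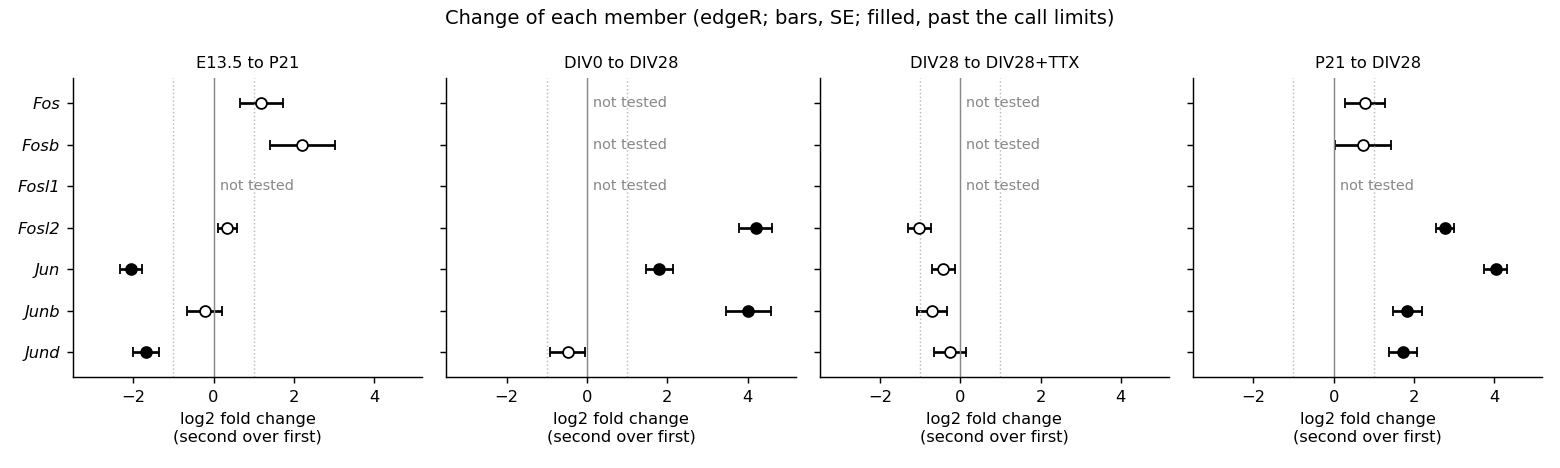
Log2 fold change of each member (x axis, second group over first, bars are SE, dotted lines mark 2-fold) in 4 comparisons, filled where it passed both limits. *Jun* lies at -2.05 in tissue from E13.5 to P21, at 1.80 in culture from DIV0 to DIV28 and at 4.04 for DIV28 over P21. With TTX none of the 4 members tested passed in the fit drawn, which has no replicate block.

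Genes that work beside AP-1 were followed as 3 lists. Of 12 other bZIP genes, whose proteins can pair with Jun or Fos or bind related sites, 10 were tested in tissue, and from E13.5 to P21 2 rose and 1 fell, a smaller share than the 56.1% of all genes that changed. *Mafg*, a small Maf protein, rose by 3.11 (SE 0.17, edgeR quasi-likelihood test, Benjamini-Hochberg adjusted p = 5.33e-11) and *Atf3*, a stress-induced partner of Jun, changed by -3.84 (SE 0.53, edgeR quasi-likelihood test, Benjamini-Hochberg adjusted p = 3.38e-06) on the log2 scale. *Atf3* had 46.2 and 59.6 normalised counts at E13.5, 2.80 to 4.14 at P21 and 171 to 751 at DIV28. With 7 counts in all at P21, *Atf3* passed the filter only through groups where it was higher, so its calls are not counted as support. Its log2 fold change from P21 to DIV28 was 6.95 (SE 0.62, edgeR quasi-likelihood test, Benjamini-Hochberg adjusted p = 9.46e-09), or 7.33 without DIV28 replicate 3, in a comparison where 2 bZIP genes were higher and 2 lower of 10 tested, against 26.3% of all genes. From DIV0 to DIV28 (11.5% of all genes rose) 1 of 9 tested rose, *Mafg*, by 1.495 on the log2 scale (SE 0.26, edgeR quasi-likelihood test, Benjamini-Hochberg adjusted p = 8.84e-04), or 1.465 without DIV28 replicate 3.

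Of the 15 kinases and factors upstream of AP-1, all tested, 6 rose and 4 fell from E13.5 to P21, a share near the 56.1% of all genes that changed. *Mapk8*, which encodes JNK1, rose by 1.60 (SE 0.17, edgeR quasi-likelihood test, Benjamini-Hochberg adjusted p = 1.51e-07) and *Mapk3*, which encodes ERK1, fell by 2.36 on the log2 scale (SE 0.26, edgeR quasi-likelihood test, Benjamini-Hochberg adjusted p = 2.05e-07). *Elk3*, a repressor of SRF targets, had 627 and 1057 normalised counts at E13.5 and 6.99 to 8.44 at P21, and the endothelial markers moved with it. Their part in this fall was not tested. In culture 1 of the 15 (19.0% of all genes), *Elk3*, was called from DIV0, where it had 2 counts in all, to DIV28, where it was at 182 to 252 normalised counts. In culture *Elk3* passed the filter only through groups after DIV0, so this call is not counted as support. With TTX 0 of the 15 passed the limits (0.683% of all genes) in edgeR's quasi-likelihood test.

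Of 14 other early response genes, 11 were tested in tissue, and from E13.5 to P21 2 rose and 5 fell, against 56.1% of all genes that changed and 26.3% that fell, with a median log2 fold change of -0.78. *Ier5* (-5.49, SE 0.33, edgeR quasi-likelihood test, Benjamini-Hochberg adjusted p = 1.1e-10) and *Ier2* (-5.12, SE 0.37, edgeR quasi-likelihood test, Benjamini-Hochberg adjusted p = 1.06e-09), both targets of growth signals, fell as the endothelial markers did, whose part was not tested, and *Arc*, a gene of synaptic plasticity, rose (3.78, SE 0.44, edgeR quasi-likelihood test, Benjamini-Hochberg adjusted p = 4.02e-07). *Ier5* and *Ier2* had 8 counts each in all at P21, and *Arc* had 9 at E13.5. They passed the filter only through groups where they were higher, so these p-values are not counted as support. From DIV0 to DIV28 2 of 9 rose and 0 fell (11.5% of all genes rose), *Arc* by 3.85 (SE 0.78, edgeR quasi-likelihood test, Benjamini-Hochberg adjusted p = 0.00227) and *Ier5* by 1.64 (SE 0.35, edgeR quasi-likelihood test, Benjamini-Hochberg adjusted p = 0.00336). Without DIV28 replicate 3 these were 3.53 and 1.501, and neither was called. *Arc* had 6 counts in all at DIV0 and passed the filter only through later groups, where it was high. Its rise from DIV0 is therefore not counted as support. With TTX 1 of 9 was called (0.683% of all genes), *Btg2*, an antiproliferative gene, with 63.7 to 123 normalised counts at DIV28 and 25.8 to 37.5 with TTX (log2 fold change -1.73, SE 0.33, edgeR quasi-likelihood test, Benjamini-Hochberg adjusted p = 0.0701), or -1.62 and not called without DIV28 replicate 3. The 9 had a median log2 fold change of -1.39 with TTX, against 0.01 for all genes tested.

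The ATAC-seq libraries, 2 per group, show where AP-1 sites lay in open chromatin. In each library the 10000 highest peaks by -log10 p with a summit over 2000 bp from any GENCODE start were searched for TGAGTCA or TGACTCA (both strands) within 100 bp of the summit. Windows of equal length 500 to 700 bp away held the heptamer in 2.73 to 3.81% of peaks. In the E10.5 libraries 2.46 and 2.83% of peaks had it, within or below this range. The shares were 5.39 and 4.85% at E13.5, 5.12 and 4.96% at P4, 8.06 and 9.25% at P13, 10.9 and 13.6% at P21, 10.4 and 11.6% at P56 and 14.9 and 13.9% at 2 years. Every tissue library of P13 or later lay above every one of P4 or before.

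The shares in culture were larger from DIV7 on. They were 5.01 and 5.12% at DIV0, 37.5 and 37.2% at DIV7, 57.9 and 53.0% at DIV28 and 47.7 and 37.6% with TTX. DIV0 was near E13.5, and every DIV7 and later library lay above every tissue library. Both libraries with TTX lay below both DIV28 libraries, and 1 of them was near DIV7. Over all distal peaks, an alternative chosen after the data were seen, the group means were 24.3% at DIV7, 32.9% at DIV28 and 25.7% with TTX. With 2 libraries a group these values are a description, with no test. The CRE octamer, a site of ATF and CREB proteins, was in 0.42 to 1.12% of the same peaks in every library. In their flanking windows it was in 0.07 to 0.18%, so this rarer site was also more frequent at the summits. The lowest -log10 p among the peaks taken ran from 6.26 to 134.1 between libraries, and how far this depth moves the shares was not tested.

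**Figure D4:**
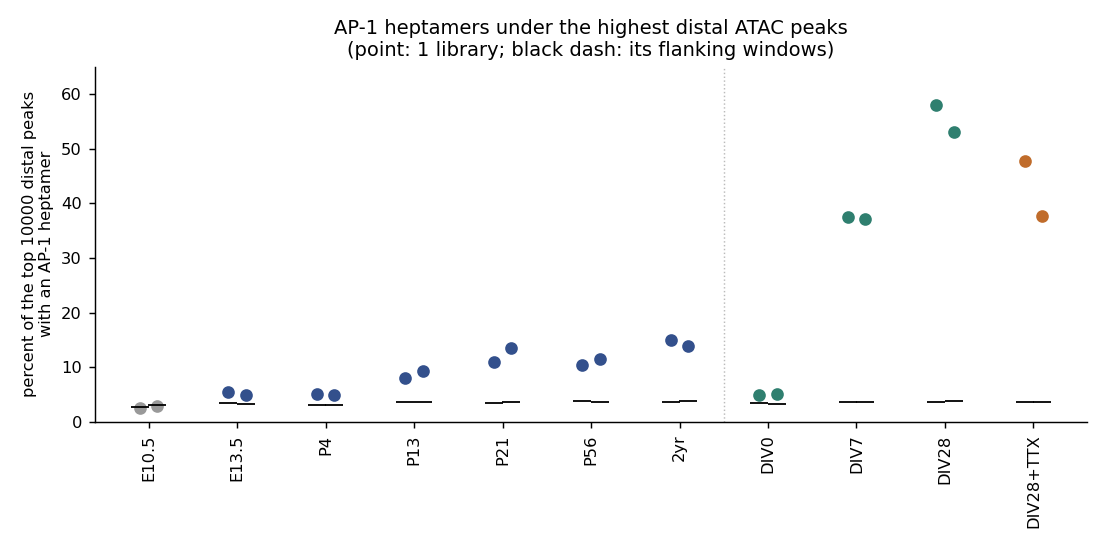
Percent of the 10000 highest distal peaks with an AP-1 heptamer within 100 bp of the summit (y axis) in each of 22 ATAC-seq libraries (points) by stage (x axis), with the flanking windows of the same peaks as black dashes. Tissue libraries run from 2.46% at E10.5 to 14.9% at 2 years, and culture libraries from 5.01% at DIV0 to 57.9% at DIV28.

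**Figure D5:**
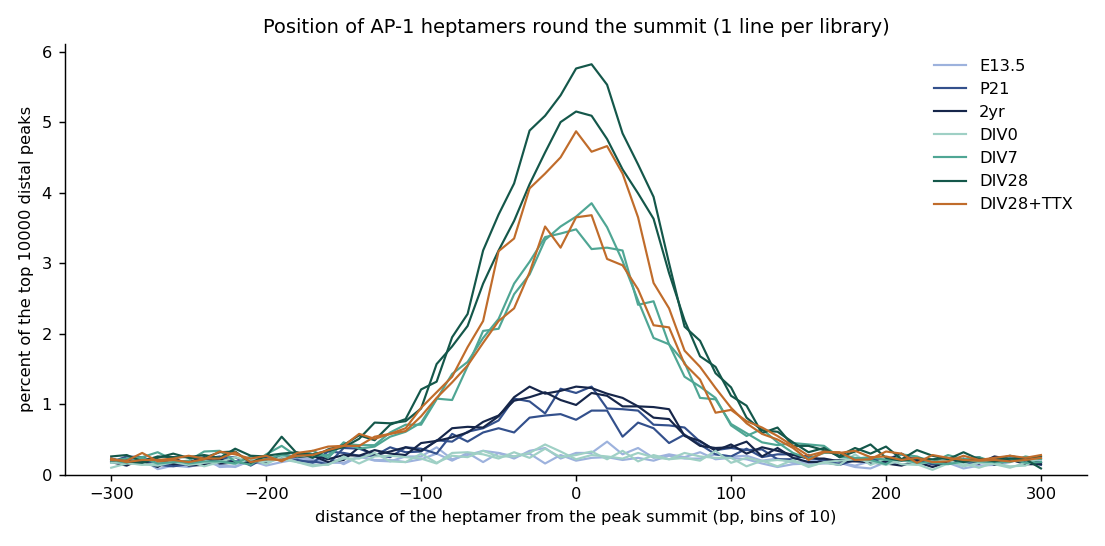
Percent of the same peaks with an AP-1 heptamer centred in each 10 bp bin (y axis) by distance from the summit (x axis), 1 line per library for 7 groups. The heptamers of DIV7, DIV28, TTX, P21 and 2-year libraries pile up at the summit, and those of E13.5 and DIV0 show little of this.

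The share was higher in peaks absent from the young stage, in a split chosen after the shares had been seen. Of the top P21 peaks that did not meet an E13.5 peak, 21.1 and 30.7% had the heptamer in the 2 libraries, against 9.49 and 11.5% of those that did. Of the top DIV28 peaks that met no DIV0 peak, 67.1 and 66.4% had it, against 38.1 and 31.9% of those that did. Most top P21 peaks, 8938 and 9128 of 10000, met a DIV28 peak, and 12 and 14.7% of these had the heptamer. It was in 1.79 and 2.29% of the others, near the 1.98 and 1.95% of their own flanks. Of the top DIV28 peaks, 9997 and 9999 met a peak of a TTX library.

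Every member had open chromatin at its start. A peak summit within 1000 bp of the start was present for 7 of 7 members in 22 of 22 libraries, where 41.4 to 50.1% of all GENCODE starts had one. *Jund* ranked highest, at a median place of 690 among all peaks of a library, then *Jun* at 1707 and *Fosl2* at 2755. *Junb*, *Fosb* and *Fos* had medians of 11257.5, 11473.5 and 12705, and *Fosl1* was last at 36484.5. The ATAC libraries of P4 and DIV0 had a peak at the start of *Fosl1*, and the RNA libraries of these groups, which are separate samples, had no count of it. At *Fosl2* the place ran from 9250 to 22577 at E10.5 and from 1277 to 5238 in all later libraries.

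AP-1 heptamers under peak summits within 50 kb of each member were then listed. There were 4 at *Fos*, 10 at *Fosb*, 7 at *Fosl1*, 9 at *Fosl2*, 10 at *Jun*, 7 at *Junb* and 5 at *Jund*, of 13, 29, 24, 21, 22, 18 and 23 heptamers in those windows. For each member, 1 site is shown, the one within 100 bp of a summit in the highest number of libraries. Ties (*Fos*, *Fosl1* and *Fosl2*) were broken by the median -log10 p of the site's peaks and then by position. This lets sites under a summit in culture alone be compared with those under one throughout. A site with no summit within 100 bp can still lie in open chromatin, so a library without one does not show the site closed. Each line gives 29 bases of the plus strand of mm10 with the heptamer in capitals.
Fos site, chr12:85519714-85519742: tcttccctgggTGACTCAgtgatccacgc
Fosb site, chr7:19327337-19327365: atccccgctgaTGACTCAttacgtcatcg
Fosl1 site, chr19:5447886-5447914: agaggcgcgagTGAGTCAgaaccgcagcc
Fosl2 site, chr5:32089707-32089735: cgctctccctcTGACTCActttcagttcc
Jun site, chr4:95081842-95081870: ggaactcagggTGACTCAgcttcacatgt
Junb site, chr8:85025412-85025440: tcaccattttaTGAGTCAagggctcacct
Jund site, chr8:70684498-70684526: gcctctgcctgTGAGTCAgcatcaccatg
The *Fos* site, 45838 bp from the start between genes, was under a summit in 5 libraries, 0 of 14 from tissue and 5 of 8 from culture (1 at DIV7, both at DIV28 and both with TTX). The *Fosl2* site, 46080 bp before the start between genes, was under one in 4, again 0 from tissue, with 1 at DIV7, both at DIV28 and 1 with TTX. The *Jun* site, in an intron of *Junos* 29634 bp before the start of *Jun*, was under one in 10, among them all 6 from DIV7 on and neither at DIV0. The *Jund* site, 14437 bp before the start between genes, was under one in 16, also all 6 from DIV7 on and neither at DIV0, and 10 of 14 from tissue, none before P4. The *Fosb* site, in an intron of *D830036C21Rik* 17300 bp before the start of *Fosb*, was under one in 21 libraries, with P4 replicate 2 the exception. The *Junb* site, 46708 bp before the start between genes, was under one in 16, with 12 from tissue, both at DIV0 and both with TTX, and none at DIV7 or DIV28. The *Fosl1* site lies in an exon of *Fosl1*, 353 bp after the start, and was under one in 5 libraries. A peak summit lay within 1000 bp of that start in 22 of 22 libraries. A heptamer under a summit marks a match of letters and does not show which dimer, if any, was bound.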

How the data were processed

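RNA was measured with a stranded total RNA kit and accessible chromatin with ATAC-seq. The authors trimmed RNA reads, aligned them with STAR 2.5.2b and counted them per gene with RSEM 1.3.0 against mm10, and deposited expected counts and TPM per library. RSEM's default, which the methods name, does not use strand. ATAC-seq reads were aligned with BWA, and the authors called peaks with MACS2 2.2.7.1 in each library at p 0.01 and deposited each peak's summit with its −log10 p, −log10 q and fold enrichment ratio.

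From the deposited files, expected counts were rounded and tested with edgeR 4.0.16 (quasi-likelihood test, TMM factors, R 4.3.3) in 3 models, over 18 tissue libraries, 10 culture libraries and, between them, 25 libraries without TTX. Genes with a CPM of at least 5 in every replicate of some group entered (15030, 12890 and 15521), and p-values were adjusted over all of them. The limits, an unadjusted p of 0.001 and 2-fold, follow the study. Levels are counts over DESeq2 1.42.0 median-of-ratios factors. TPM served only for shares within a library and for marker sums, since TPM per normalised count differed between groups (0.525 at DIV28, 1.95 at E10.5). Peaks of 22 ATAC libraries, 2 per group, were read against GRCm38.p6 and GENCODE starts. Scripts were tested on simulated data.

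The pairing of TTX and DIV28 libraries by replicate number is taken from the data and is not stated in the sources used here: same-numbered libraries correlated at 0.582, 0.505 and 0.665 in their deviations over genes. All members are named. Other listed genes are named where they passed the limits, at most the 4 lowest p per list and comparison. The members and lists were chosen with earlier results of these data known. Alternatives were median-of-ratios factors, no filter, DESeq2, only the groups compared, a replicate block, an adjusted p of 0.05 and leaving out each library, the last also for the pooled ratios of low counts, added after seeing the data. A result on 1 listed gene is not reported here.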

Additional observations from a re-analysis of the deposited data

Results flagged for a closer look

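The changes of 3 of 6 tested members differed between tissue (E13.5 to P21) and culture (DIV0 to DIV28) in the test of the difference itself. Of all genes tested 41.7% differed, a share near that of the members, and 24.2% had the lower change in tissue. On the log2 scale the change in tissue minus that in culture was -4.07 for *Fosl2*, -4.05 for *Jun* and -4.43 for *Junb*. Over all libraries left out in turn the values ran from -4.31 to -3.78, from -4.53 to -3.83 and from -4.68 to -3.98, and each stayed past the limits. *Fosl2* and *Junb* were low at DIV0, with 35 and 7 counts in all. The endothelial markers were high at E13.5 (400.0 to 751.6 TPM) and not at DIV0 (0.15 to 0.2), and their part was not tested.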

How the results depend on the processing

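The number of members called was kept within 1.5 times by every other alternative except these. It was 0 instead of 1 from E13.5 to P4 with only the groups compared and with the replicate block, 0 instead of 1 from P4 to P13 with the block, and 0 instead of 2 from E13.5 to DIV0 with only the groups compared, where *Junb* was not tested. From DIV7 to DIV28 it was 1 (*Jun*) instead of 0 with DESeq2, no filter, the replicate block (1.45) and the adjusted limit. With TTX it was 2 with no filter and 1 with the replicate block, a pairing taken from the data. The block changed no other count. Outside TTX the samples share only a number. Leaving out 1 library gave 0 to 1 from E13.5 to P4, 0 to 1 from P4 to P13, 1 to 2 from E13.5 to P21, 1 to 2 from DIV0 to DIV7, 2 to 3 from DIV0 to DIV28 and 0 to 2 from E13.5 to DIV0, and it did not move the other counts. An uncalled value changed sign for *Jun* from E10.5 to E13.5 without E10.5 replicate 3 (0.09, range of the alternatives from -0.73) and for *Jund* with TTX without DIV28 replicate 1 (0.27) or TTX replicate 3 (0.02), where leaving out 1 library gave -0.55 to 0.27.

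The AP-1 heptamer shares, as group means, moved with the window and the number of peaks. Within 50 bp they were 1.27% at E10.5, 2.62% at E13.5, 2.65% at P4, 5.21% at P13, 7.93% at P21, 6.88% at P56 and 9.47% at 2 years, and 2.65% at DIV0, 26.6% at DIV7, 40.3% at DIV28 and 31.0% with TTX. With 5000 peaks they were 4.35% at P4, 4.83% at DIV0 and 38.9% at DIV7. With 30000 peaks they were 3.08% at E10.5, 5.94% at P4, 33.7% at DIV7 and 50% at DIV28. With all distal peaks, an alternative chosen after seeing the data, they were 3.35% (E10.5), 5.51% (E13.5), 5.78% (P4), 10.1% (P21), 9.30% (P56), 10.48% (2 years), 24.3% (DIV7), 32.9% (DIV28) and 25.7% (TTX). The cause was not tested. Leaving out 1 library gives the values of single libraries: 2.46 to 2.83% at E10.5, 4.85 to 5.39% at E13.5, 4.96 to 5.12% at P4, 8.06 to 9.25% at P13, 10.9 to 13.6% at P21, 10.4 to 11.6% at P56, 13.9 to 14.9% (2 years), 5.01 to 5.12% (DIV0), 37.2 to 37.5% (DIV7), 53.0 to 57.9% (DIV28) and 37.6 to 47.7% (TTX). With 2 or 3 libraries a group and totals from 2704682 counts, changes of *Fos*, *Fosb* and *Fosl1* in culture were at the limit of what the depth shows.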

Other observations

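The genes whose log2 CPM was most like that of a member over the 28 RNA libraries were listed, among 15561 genes. The 28 libraries share groups and depth, so these values are a description. For *Jun* they were *D430019H16Rik* (Pearson r = 0.965), *Cdkn1a*, an inhibitor of cyclin-dependent kinases (0.953), and *Gap43*, a growth cone protein (0.944). For *Fosl2* they were *Gnpda2* (0.947), *Kbtbd12* (0.929) and *Lifr*, a receptor of leukaemia inhibitory factor (0.925). For *Jund* they were *Armcx2* (0.953), *Midn* (0.951) and *Mex3d* (0.947), and for *Junb* *Gcnt2* (0.849), *Wfs1* (0.845) and *Lgals1* (0.844). For *Fosb* they were *Nuak1* (0.889), *Kpna6* (0.874) and *Tti1* (0.874), and for *Fos* *Slc39a9* (0.809), *Hmgxb3* (0.776) and *Map3k10* (0.775).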
